A study of Mus musculus with 18 samples.

Results

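Glucocorticoid signaling was followed through 10 genes, the 2 corticosteroid receptors, an enzyme that makes the ligand, and 7 genes that respond to glucocorticoids or to stress, in RNA from the lateral septum (LS) of female mice. A gene was taken into account where a probeset, the set of probes that measures a transcript on the array, names that gene and no other. This held for 9 of the 10 genes, each with 1 such probeset, out of 21789 probesets that name 1 gene and 35557 in all. The exception was Cdkn1a, which codes for a cell cycle inhibitor and whose probeset also names 4930567H12Rik.

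The series holds 18 arrays (Affymetrix Mouse Gene 1.0 ST), 1 per mouse, with 6 outbred hsd:ICR females of about 70 days in each of 3 groups and no genetic modification. Virgin mice had been housed with other females for 2 weeks, while mice of the other groups were housed with a male. All females then lived singly until dissection, when the virgin mice were in diestrus. Maternal mice were lactating and were dissected on postpartum Day 7 with litters that had been culled to 11 pups. Pups removed mice had given birth too, but their pups were taken away on Day 2, were also dissected on Day 7, and were in diestrus. The last group therefore differs from maternal mice in contact with pups, in nursing and in having lost the litter, which cannot be told apart. The estrous state of maternal mice was not given, so a difference in it cannot be told apart from these either. Each sample is a bilateral micropunch of the LS from 1 animal and holds all cell types of the punch. All values are log2 signals as the authors deposited them, array medians lay between 7.61 and 7.70, and arrays of 1 group correlated at 0.991 to 0.995 over probesets. The 8 markers chosen for the LS, among them the transcription factor Zic1 and the receptor Crhr2, had a mean log2 signal of 10.26 to 10.61 on every array. This level was not particular to them, since astrocyte markers had means of 10.45 to 10.69 and striatal neuron markers of 9.76 to 10.89.

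Glucocorticoids (corticosterone in mice) cross into cells and bind 2 nuclear receptors, the glucocorticoid receptor (Nr3c1) and the mineralocorticoid receptor (Nr3c2). The bound receptor moves to the nucleus and binds DNA at glucocorticoid response elements, where it raises the transcription of genes such as Fkbp5, Sgk1, Tsc22d3 and Zbtb16. The LS carries both receptors and takes part in anxiety and in responses to stressors. Fam107a (also known as DRR1) codes for an actin-binding protein that stress and glucocorticoids induce in brain, and it is prominent in astrocytes.

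Promoter windows of the listed genes were searched for the letters that the receptor recognizes. Windows of Sgk1, Fam107a and Tsc22d3 are shown, and a link between these letters and the group differences was not tested. The windows run from 250 bases before to 50 bases after an annotated start, are from RefSeq (GRCm38.p6), are written 5′ to 3′ on the strand of the gene, and have the motif in capitals. The palindrome searched for, an idealized response element made of AGAACA, any 3 bases and TGTTCT, was in 3 of 32851 windows (0.00913%), and 1 of these is a window of Sgk1 at chr10:21993640-21993939 (plus strand), with the palindrome starting 189 bases before the start. Its half-site, AGAACA or TGTTCT (the same letters on the other strand, and also the 2 arms of the palindrome), was in 19.0% of all windows. A window of Fam107a at chr14:8309730-8310029 (minus strand) had 2 half-sites, 158 and 110 bases before the start, as 2.54% of all windows have at least 2. Tsc22d3 had 1 half-site in 1 of its 3 windows, chrX:140600473-140600772 (minus strand), 185 bases before the start.
Sgk1: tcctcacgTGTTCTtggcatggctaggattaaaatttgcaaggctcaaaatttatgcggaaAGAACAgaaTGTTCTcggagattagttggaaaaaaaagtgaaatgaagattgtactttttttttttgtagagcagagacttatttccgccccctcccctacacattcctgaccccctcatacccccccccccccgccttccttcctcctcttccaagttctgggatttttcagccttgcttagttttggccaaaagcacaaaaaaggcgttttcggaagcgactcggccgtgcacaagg
Fam107a: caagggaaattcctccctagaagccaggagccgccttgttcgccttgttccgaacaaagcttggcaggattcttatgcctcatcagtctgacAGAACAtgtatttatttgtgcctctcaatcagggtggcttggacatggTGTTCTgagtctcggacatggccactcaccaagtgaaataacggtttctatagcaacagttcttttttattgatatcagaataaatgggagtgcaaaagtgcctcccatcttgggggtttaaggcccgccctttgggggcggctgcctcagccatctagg
Tsc22d3: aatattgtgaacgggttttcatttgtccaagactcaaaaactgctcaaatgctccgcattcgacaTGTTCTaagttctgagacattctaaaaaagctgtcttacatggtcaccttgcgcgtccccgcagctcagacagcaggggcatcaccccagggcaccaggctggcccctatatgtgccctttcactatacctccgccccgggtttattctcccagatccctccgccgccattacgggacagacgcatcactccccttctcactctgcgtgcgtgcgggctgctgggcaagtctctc
In all, 19 windows of 8 of the 10 genes were searched, including Cdkn1a, and 6 of the windows, of 3 genes, held a half-site. Of the 6 windows with a half-site, 2 are overlapping windows of Fam107a. Sgk1 had 6 of the 19 windows, against 3 each for Fam107a and Tsc22d3, so the number of places searched differed between genes. The windows of Fkbp5, Hsd11b1, Nr3c2, Errfi1 and Cdkn1a held no match, which says only that these letters are not in those windows. Windows for Nr3c1 and Zbtb16 were not used here. A match is a description of the sequence, since the binding of the receptor was not measured.

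Fam107a was the gene with a called difference, which here means an adjusted p below the cutoff of 0.25 that the study used. Its log2 signal was 11.30, 11.41 and 11.52 (lowest, median and highest of 6 arrays) in virgin mice. It was 11.56, 11.61 and 11.70 in maternal mice and 11.23, 11.29 and 11.35 in pups removed mice. Every maternal array lay above every virgin array, as for 0.284% of all probesets, and above every pups removed array, as for 0.172%, whereas the virgin and pups removed ranges overlapped. Maternal mice had 16.2% more Fam107a signal than virgin mice, a log2 difference of 0.22 (SE 0.04, n = 6 and 6, limma adjusted p = 0.111). Against pups removed mice the log2 difference was 0.33 (SE 0.04, limma adjusted p = 0.000923), or 25.6% more. In pups removed mice the value was lower than in virgin mice by a log2 difference of -0.11 (SE 0.04), which did not pass after adjustment (limma adjusted p = 0.421). The order was thus maternal, virgin, pups removed, with the last 2 not separated by the adjusted test. The call against virgin mice was lost when the fifth maternal array was left out (adjusted p = 0.251, range over alternatives 0.0638 to 0.251), and the call against pups removed mice was kept in each alternative run (0.000163 to 0.0285). Fam107a was put on the list with its result on these arrays known, since it is among the genes that the study listed from them. In these tissue punches, a change in the number of cells of a type and a change in RNA per cell cannot be told apart.

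**Figure D1:**
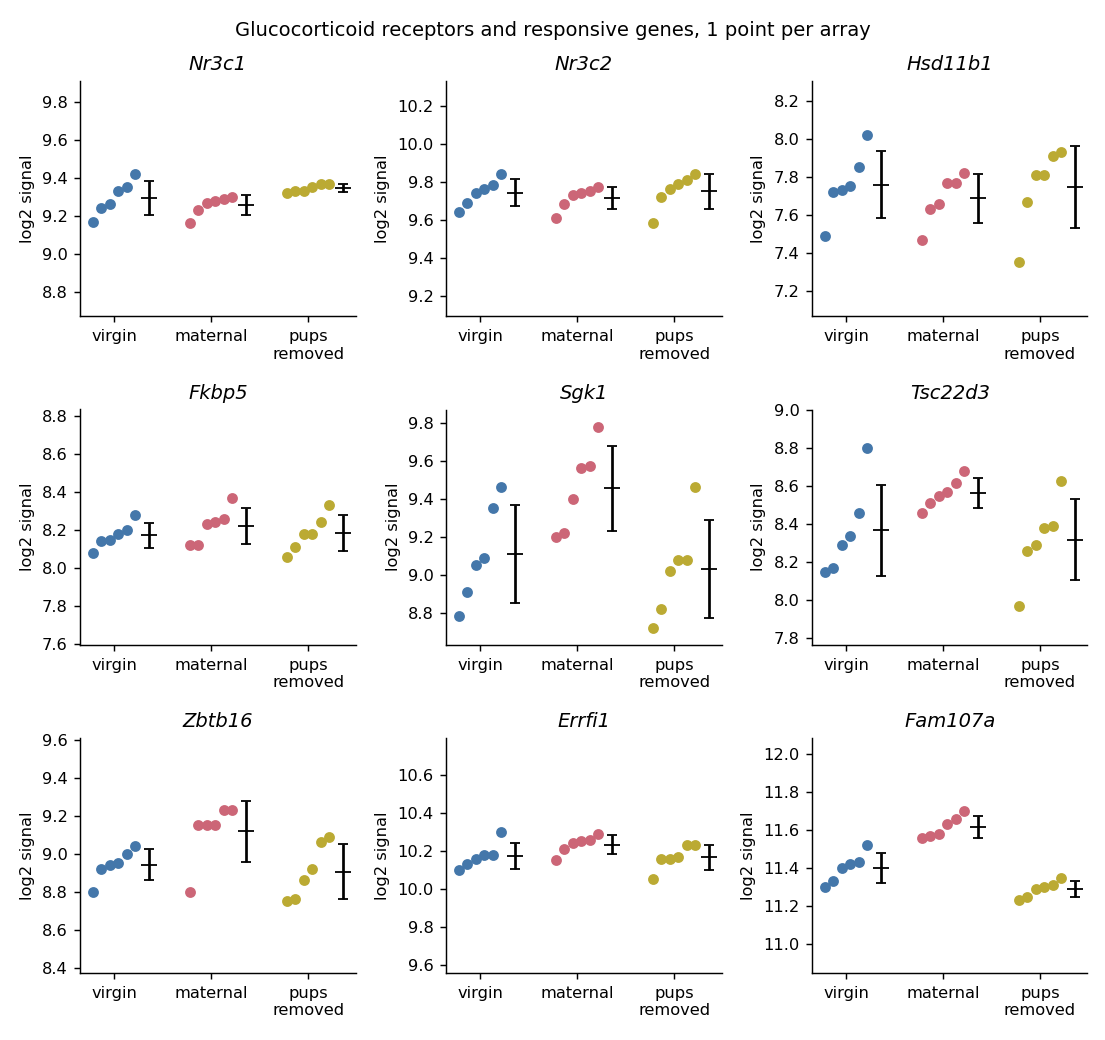
Log2 signal (vertical axis, the same span in each panel) of 9 genes in virgin, maternal and pups removed mice, with 1 point per array sorted within each group and the mean ± SD in black. The maternal Fam107a values, 11.56 to 11.70, lie above all others, whereas the groups of Fkbp5 and Nr3c2 overlap.

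Among the 9 genes, 1 was called between maternal and virgin mice, where 1.65% of all probesets were called. In maternal mice 6 genes had a higher and 3 a lower mean, with a median log2 difference of 0.06 over the 9 genes and of 0.01 over all probesets. At an unadjusted p under 0.05, 3 of the 9 were higher (Fam107a, Sgk1 and Zbtb16) and 0 lower, where 5.80% of all probesets were higher and 4.62% lower at that level. Between maternal and pups removed mice 1 of the 9 was called, where 0.0309% of all probesets were. Higher means were again those of Fam107a, Sgk1, Tsc22d3, Zbtb16, Fkbp5 and Errfi1, and the median log2 difference was 0.07 over the 9 genes and 0.00 over all probesets. At an unadjusted p under 0.05, 4 were higher (Fam107a, Sgk1, Tsc22d3 and Zbtb16) against 3.33% of all probesets, and 1 was lower (Nr3c1) against 5.63%. Both comparisons use the same maternal arrays. Between pups removed and virgin mice 0 of the 9 were called by limma, where 0.208% of all probesets were called, and 1 of the 9 (Fam107a, lower) had an unadjusted p under 0.05, where 1.99% of all probesets were lower at that level.

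**Figure D2:**
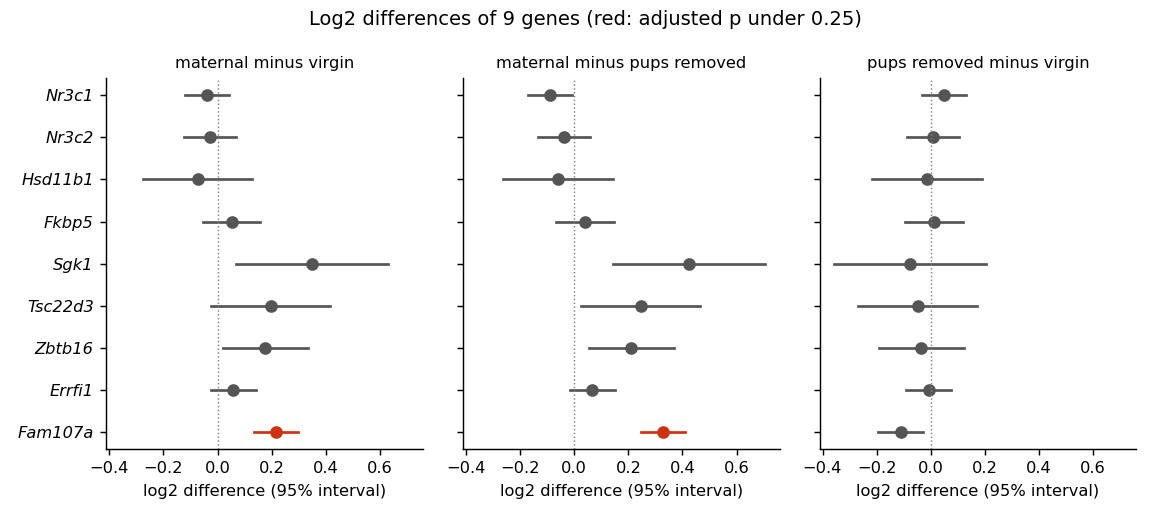
Log2 differences between groups (horizontal axis) for 9 genes in 3 comparisons, as points with 95% intervals from limma. Fam107a is called at 0.22 and 0.33, and the intervals of Sgk1 and Zbtb16 lie above 0 in both maternal comparisons without passing the adjusted threshold.

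Neither receptor gene was called in any comparison. Nr3c1, the glucocorticoid receptor, had log2 signals of 9.17, 9.30 and 9.42 (lowest, median and highest) in virgin mice. Its maternal values were 9.16, 9.28 and 9.30, and its pups removed values were 9.32, 9.34 and 9.37. Every maternal array lay below every pups removed array, by a gap of 0.02, whereas both groups overlapped the virgin range. Such a separation, lower in maternal mice, was seen for 0.357% of all probesets. The maternal minus pups removed log2 difference was -0.09 (SE 0.04, limma adjusted p = 0.526), which did not pass, whereas the exact permutation test of the 12 arrays gave p = 0.00216 (two-sided, unadjusted), the smallest it can give. Against virgin mice it was -0.04 (SE 0.04, limma adjusted p = 0.766). Nr3c2, the mineralocorticoid receptor, lay between 9.58 and 9.84 on all 18 arrays with all groups overlapping. Its log2 differences were -0.03 (95% interval -0.12 to 0.07) for maternal minus virgin and -0.04 (-0.13 to 0.06) for maternal minus pups removed. Hsd11b1, the enzyme that regenerates active glucocorticoid from its inert form, ranged from 7.35 to 8.02 with overlap of all groups, and its differences were -0.07 (-0.28 to 0.13) and -0.06 (-0.26 to 0.14).

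Sgk1, a serum- and glucocorticoid-regulated kinase, had the widest differences of the 9 genes in the 2 maternal comparisons, together with wide spread. Its log2 signal was 8.78, 9.07 and 9.46 (lowest, median and highest) in virgin mice. It was 9.20, 9.48 and 9.78 in maternal mice and 8.72, 9.05 and 9.46 in pups removed mice. All 6 maternal arrays lay above the mean of each other group, and 3 of them lay above every array of those groups. The log2 difference was 0.35 (SE 0.13, limma adjusted p = 0.366, exact permutation p = 0.039 before adjustment) against virgin mice. It was 0.43 (SE 0.13, limma adjusted p = 0.391, exact permutation p = 0.0152 before adjustment) against pups removed mice. Neither passed, although the second passed where only probesets that name 1 gene were tested (adjusted p = 0.246, range over alternatives 0.246 to 0.66). In that run 309 of 21789 probesets were called, against 11 of 35557 in the main run. Between pups removed and virgin mice the log2 difference of Sgk1 was -0.08 (95% interval -0.36 to 0.20).

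Tsc22d3, which codes for the glucocorticoid-induced leucine zipper (GILZ), had log2 signals of 8.15, 8.32 and 8.80 in virgin mice. They were 8.46, 8.56 and 8.68 in maternal mice and 7.97, 8.34 and 8.63 in pups removed mice. The maternal arrays lay close together (SD 0.08, against 0.24 in virgin and 0.22 in pups removed mice) and within the range of the virgin arrays. Its log2 differences were 0.20 (SE 0.10, limma adjusted p = 0.533, exact permutation p = 0.0952) against virgin mice and 0.25 (SE 0.10, limma adjusted p = 0.518, exact permutation p = 0.0216) against pups removed mice. Zbtb16, a zinc finger transcription factor (PLZF), had log2 signals of 8.80, 8.95 and 9.04 in virgin mice. They were 8.80, 9.15 and 9.23 in maternal mice and 8.75, 8.89 and 9.09 in pups removed mice. As many as 5 of the 6 maternal arrays lay above every array of the other groups, and the third maternal array, at 8.80, lay below the mean of both. The log2 differences of Zbtb16 were 0.18 against virgin mice (SE 0.07, limma adjusted p = 0.418, exact permutation p = 0.0519) and 0.21 against pups removed mice (SE 0.07, limma adjusted p = 0.433, exact permutation p = 0.0411). Without the third maternal array the difference against virgin mice was 0.24 and was called (adjusted p = 0.202, range over alternatives 0.202 to 0.678).

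Fkbp5, a co-chaperone that lowers the affinity of the receptor for its ligand and is a common readout of glucocorticoid action, lay between 8.06 and 8.37 on all arrays. Its groups overlapped, and its log2 differences were 0.05 (95% interval -0.06 to 0.16) for maternal minus virgin, 0.04 (-0.07 to 0.15) for maternal minus pups removed, and 0.01 (-0.10 to 0.12) for pups removed minus virgin. Errfi1, a feedback inhibitor of the EGF receptor, lay between 10.05 and 10.30. Of its 6 maternal arrays 5 were above the mean of each other group, with differences of 0.06 (-0.02 to 0.14) and 0.07 (-0.02 to 0.15). The intervals of Fkbp5 hold 0 in all 3 comparisons, and they end below the Fam107a difference of 0.33 in the comparison with pups removed mice. For the probeset that names both Cdkn1a and 4930567H12Rik, the log2 differences were -0.04 (SE 0.08) and -0.02 (SE 0.08), and the signal cannot be assigned to either gene.

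Whether Fam107a followed the other genes from animal to animal was asked with the mean of each group removed from the values, so that a difference between groups could not produce the relation. Pearson r with Fam107a over the 18 arrays was 0.52 for Nr3c1, 0.48 for Sgk1, 0.41 for Tsc22d3, 0.33 for Nr3c2, 0.29 for Zbtb16 and 0.25 for Fkbp5. It was -0.05 for Hsd11b1 and -0.07 for Errfi1. Thus 6 of the 8 values were above 0, with 0 of 8 passing at an adjusted p under 0.05 over the 36 pairs of the 9 genes, and 0 of 8 had an unadjusted p under 0.05 in the permutation test. The lowest p was that of Sgk1 (permutation p = 0.0605, adjusted p = 0.544), with a Spearman rho of 0.38 (permutation p = 0.15, adjusted p = 0.649). For Nr3c1 rho was 0.51 (permutation p = 0.0742, adjusted p = 0.649) beside the r of 0.52 (permutation p = 0.0842, adjusted p = 0.596). Among all genes with a probeset of their own, 2.33% had an r with Fam107a at least as high as Nr3c1, 3.49% as Sgk1 and 6.26% as Tsc22d3. The share was 11.6% for Nr3c2, 14.2% for Zbtb16, 17.9% for Fkbp5, 53.0% for Hsd11b1 and 56.7% for Errfi1. Without the 2 arrays farthest from the median of Fam107a, the fourth and sixth virgin arrays, r fell to 0.30 for Sgk1 and 0.00 for Tsc22d3 and was 0.43 for Nr3c1 and 0.49 for Zbtb16. Leaving out the fourth virgin array alone took r from 0.41 to 0.09 for Tsc22d3, from 0.25 to 0.07 for Fkbp5, from 0.33 to 0.16 for Nr3c2 and from 0.48 to 0.34 for Sgk1. Without the sixth virgin array alone r was 0.33 for Tsc22d3, 0.23 for Fkbp5 and 0.18 for Nr3c2. The Tsc22d3 and Fkbp5 values thus rest on the fourth virgin array, and that of Nr3c2 on each of these 2 arrays.

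With the values as deposited, which also hold the differences between groups, r with Fam107a was 0.72 for Sgk1 (permutation p = 0.00108, adjusted p = 0.0295), 0.64 for Zbtb16 (permutation p = 0.00539, adjusted p = 0.0536) and 0.61 for Tsc22d3 (permutation p = 0.00795, adjusted p = 0.054). The corresponding rho values were 0.72 (permutation p = 0.0009, adjusted p = 0.0308), 0.70 (permutation p = 0.00179, adjusted p = 0.0308) and 0.60 (permutation p = 0.00937, adjusted p = 0.0638). Without the 2 arrays farthest from the median, r was 0.65, 0.52 and 0.60 for these 3 genes. Of all genes, 0.105% had an r with Fam107a at least as high as that of Sgk1, 0.366% as that of Zbtb16 and 0.502% as that of Tsc22d3. For Fkbp5, r was 0.30 (permutation p = 0.222, adjusted p = 0.474), and for Nr3c1 it was -0.33 (permutation p = 0.18, adjusted p = 0.432), with the opposite sign to its value after group means were removed. The r values of these 3 genes with Fam107a were thus smaller once group means were removed, and none of them passed the test then.

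**Figure D3:**
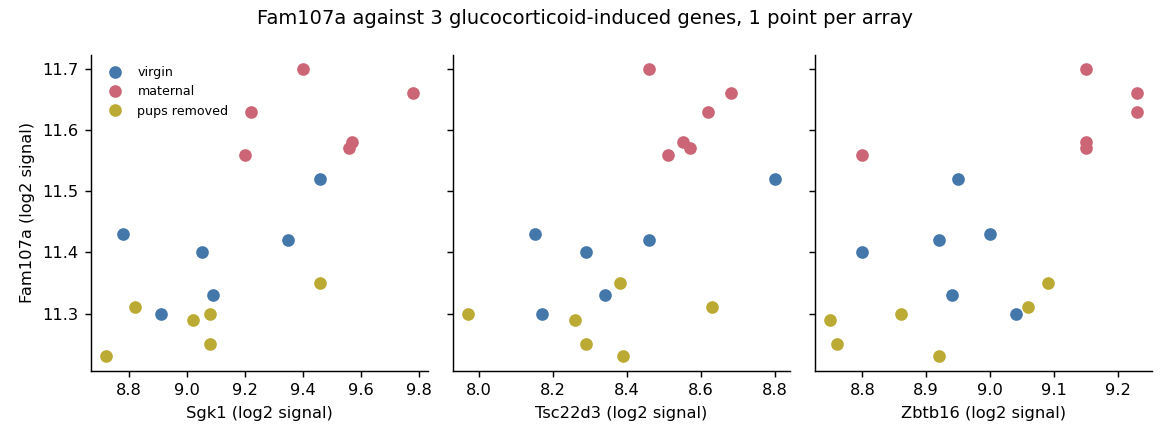
Log2 signal of Fam107a (vertical axis) against that of Sgk1, Tsc22d3 and Zbtb16 (horizontal axes), with 1 point per array and colors for the 3 groups. The maternal arrays form the top of each panel, and r over the 18 arrays is 0.72, 0.61 and 0.64 from left to right, against 0.48, 0.41 and 0.29 once group means are removed.

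Within single groups of 6 arrays the relations with Fam107a varied. Of 24 such values, 1 passed at an adjusted p under 0.05, that with Nr3c2 in virgin mice, where both genes ranked the 6 arrays in the same order (r = 0.99, exact permutation p = 0.00139, adjusted p = 0.0333). Its rho was 1.0 (exact permutation p = 0.00278, adjusted p = 0.0667), and r was 0.99 without the 2 arrays farthest from the median. In maternal and pups removed mice r of Nr3c2 with Fam107a was 0.01 and -0.24 (exact permutation p = 0.988 and 0.651, adjusted p = 0.988 and 0.954), and the difference between groups was not tested. The Sgk1 values were 0.58 in virgin mice, 0.19 in maternal mice and 0.70 in pups removed mice (exact permutation p = 0.233, 0.715 and 0.111, adjusted p = 0.622, 0.954 and 0.622). These 24 values were added after the pooled ones had been seen.

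Among the 28 pairs without Fam107a, 3 had an unadjusted p under 0.05 after group means were removed, and 0 passed the adjustment. Zbtb16 and Hsd11b1 ran opposite to each other (r = -0.65, permutation p = 0.00298, adjusted p = 0.107, and rho = -0.72, permutation p = 0.00192, adjusted p = 0.0691). Errfi1 and Nr3c1 did so too (r = -0.62, permutation p = 0.00829, adjusted p = 0.149, and rho = -0.45, permutation p = 0.0669, adjusted p = 0.649). With the values as deposited the latter pair had an r of -0.69 (permutation p = 0.00164, adjusted p = 0.0295). Nr3c2 and Hsd11b1 had an r of 0.58 (permutation p = 0.0312, adjusted p = 0.374) that became 0.09 without the 2 arrays farthest from the median of Nr3c2, and thus rests on them.

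**Figure D4:**
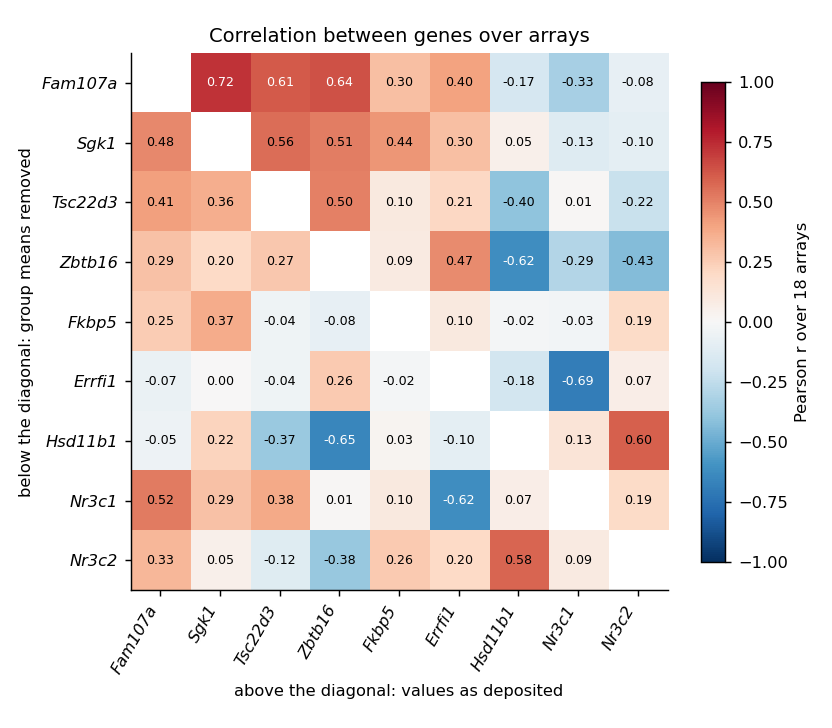
Pearson r between 9 genes over 18 arrays, with the values as deposited above the diagonal and with group means removed below it, on a color scale from -1 to 1. The row of Fam107a reaches 0.72 with Sgk1, and its column, after group means are removed, reaches 0.52 with Nr3c1.

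The genes most like Fam107a after group means were removed, among 14150 genes with a mean log2 signal of at least 7, were Vps16 (r = 0.84), Cntln (0.83), Exoc1 (0.82), Nudcd1 (0.82) and Asb8 (0.80). None of these 5 was called in any comparison, and their maternal minus pups removed log2 differences lay between -0.09 and -0.02. Those most like Fkbp5 were Dll1 (0.79), Tor1a (0.79), Coq10b (0.76), Rad9b (0.75) and Adgrb3 (0.74), of which none was called either. With the values as deposited, the genes most like Fam107a were Socs2 (r = 0.84), Sult1a1 (0.84), Etnppl (0.83), Cyp2j9 (0.83) and Cish (0.82), a set looked up after its values were seen and not independent of the group differences.

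A list of 30 other genes, chosen as glucocorticoid-induced in various tissues, was set beside these, of which 29 had a probeset of their own. Whether glucocorticoids induce each of them in the LS was not tested. Of the 29, 1 was called higher and 0 lower in maternal mice in each of the comparisons with virgin and with pups removed mice, where 1.65% and 0.0309% of all probesets were called. It was Sult1a1, a sulfotransferase of phenols, in both cases. At an unadjusted p under 0.05, 3 of the 29 were higher and 1 (Sgk3) lower than in virgin mice, where 5.80% of all probesets were higher and 4.62% lower. Against pups removed mice 7 were higher and 2 (Sgk3 and Rgs4) lower at that level, where 3.33% of all probesets were higher and 5.63% lower. The log2 signal of Sult1a1 was 7.92, 8.07 and 8.20 (lowest, median and highest) in virgin mice. It was 8.27, 8.33 and 8.52 in maternal mice and 7.87, 8.01 and 8.16 in pups removed mice, so that every maternal array lay above all others, as for 0.284% of all probesets against virgin and 0.172% against pups removed mice. Its log2 differences were 0.29 against virgin mice (SE 0.06, limma adjusted p = 0.123) and 0.33 against pups removed mice (SE 0.06, limma adjusted p = 0.194). In the study's own fit, Sult1a1 and Arrdc2 both passed its cutoff of 0.25 in both maternal comparisons, whereas Arrdc2 was not called here. Both genes, which are on the list of 30, are thus among those that the study listed from these arrays. This was known when the list was made. Neither the call of Sult1a1 nor the counts of higher genes are thus independent evidence for the list. Of the 29 genes, 19 had a higher mean in maternal than in virgin mice and 22 a higher mean than in pups removed mice, with median log2 differences of 0.03 and 0.06, against 0.01 and 0.00 over all probesets. Plin4, a lipid droplet protein, had differences of 0.24 (limma adjusted p = 0.299) and 0.36 (limma adjusted p = 0.278), and Hif3a, a hypoxia-inducible factor, had 0.25 (limma adjusted p = 0.483) and 0.38 (limma adjusted p = 0.391). These 2 genes did not pass and were named after their values were seen. Between pups removed and virgin mice 9 of the 29 were higher and 20 lower, with a median of -0.03 and 0 called by limma (0 also at an unadjusted p under 0.05). The smallest p values there were those of Ctla2a (-0.22, limma adjusted p = 0.711), Nfkbia (-0.08, limma adjusted p = 0.719) and Klf9 (-0.07, limma adjusted p = 0.743).

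**Figure D5:**
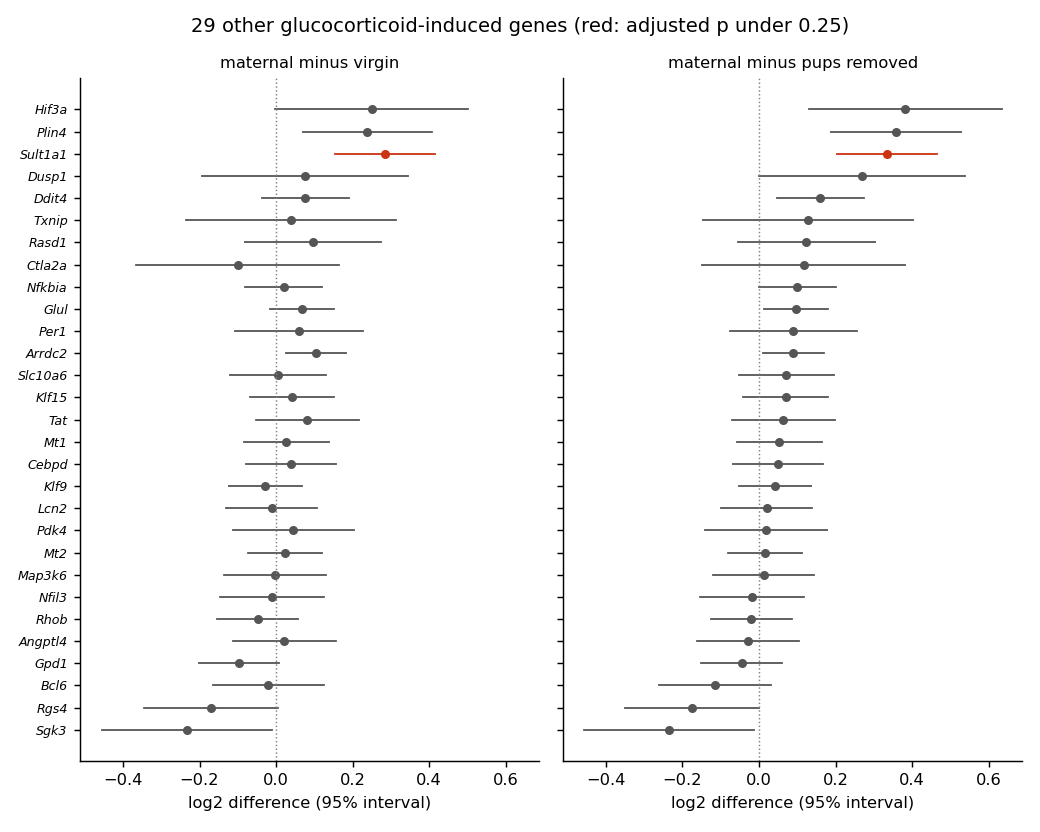
Log2 differences (horizontal axis, points with 95% intervals from limma) of 29 other genes chosen as glucocorticoid-induced, for maternal minus virgin and maternal minus pups removed mice, ordered by the latter. Sult1a1 is the called gene in both panels, at 0.29 and 0.33, and most other intervals include 0.

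Of 22 genes for chaperones, coregulators, steroid metabolism, binding and transport in glucocorticoid signaling, 18 had a probeset of their own, and 0 were called by limma in any of the 3 comparisons. At an unadjusted p under 0.05, 2 of the 18 were higher and 0 lower in maternal than in virgin mice, where 5.80% of all probesets were higher and 4.62% lower. These were Hspa8, a chaperone of the HSP70 family (0.08, SE 0.03, limma adjusted p = 0.307), and Stip1, which bridges HSP70 and HSP90 (0.11, SE 0.04, limma adjusted p = 0.315). The coactivator Ep300 came next (0.06, SE 0.03, limma adjusted p = 0.57). Against pups removed mice, Stip1 was higher (0.13, SE 0.04, limma adjusted p = 0.375) and Bag1, a co-chaperone, lower (-0.11, SE 0.04, limma adjusted p = 0.485) at that level, where 3.33% of all probesets were higher and 5.63% lower. Between pups removed and virgin mice 0 of the 18 had an unadjusted p under 0.05.

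Markers of cell types that the punch could hold were compared as well. Of the 8 LS markers, 0 were called by limma in any comparison. In maternal mice 4 had a higher and 4 a lower mean than in virgin mice, and 7 a higher and 1 a lower mean than in pups removed mice. At an unadjusted p under 0.05, 2 were higher and 0 lower in each maternal comparison, where 5.80% and 3.33% of all probesets were higher. Of 10 markers of striatal medium spiny neurons, 8 had a probeset of their own, and all 8 had a lower mean in maternal than in virgin mice, with a median log2 difference of -0.49 and 2 called (Bcl11b and Rarb), where 1.65% of all probesets were called. All 8 were lower at an unadjusted p under 0.05, as 4.62% of all probesets were. Against pups removed mice all 8 were lower too, with a median of -0.34 and 0 called by limma, 6 of them at an unadjusted p under 0.05, where 5.63% of all probesets were lower. Their summed signal (log2) was 13.97 to 14.23 in virgin mice, 13.29 to 13.89 in maternal mice and 13.43 to 14.35 in pups removed mice, so that the maternal range lay below the virgin range and overlapped that of pups removed mice. Of 10 astrocyte markers, a cell type in which Fam107a is known to be prominent, 0 were called by limma in any comparison. In maternal mice 3 had a higher and 7 a lower mean than in virgin mice (median log2 difference -0.05). Against pups removed mice 4 had a higher and 6 a lower mean (median -0.05). Their summed signal was 14.48 to 14.64 in virgin mice, 14.52 to 14.59 in maternal mice and 14.48 to 14.55 in pups removed mice. At an unadjusted p under 0.05, 1 astrocyte marker was higher in maternal than in pups removed mice (Aldoc, 0.18, SE 0.04, limma adjusted p = 0.287) and 1 lower (Aqp4, -0.16, SE 0.07, limma adjusted p = 0.546). Between pups removed and virgin mice 1 was lower at that level, where 1.99% of all probesets were lower. Of 7 endothelial markers, 4 had a higher and 3 a lower mean in maternal than in virgin mice (median 0.01). Of these, 1 was called (Flt1, higher). Of 7 microglial markers, 3 were higher and 4 lower (median -0.02), and 2 were called (P2ry12 and Aif1, lower), against the same 1.65% of all probesets. Against pups removed mice 0 of either list were called by limma. There 2 endothelial markers were higher and 5 lower, and 4 microglial markers were higher and 3 lower. Against virgin mice 0 of 7 oligodendrocyte and 0 of 7 choroid plexus markers were called by limma (0 and 1, Aqp1, lower, at an unadjusted p under 0.05). All 7 choroid plexus markers had a lower mean in maternal mice, with a median log2 difference of -0.31 against virgin and -0.25 against pups removed mice. They varied widely in each group, with summed signals of 10.90 to 14.13 in virgin mice, 10.88 to 13.85 in maternal mice and 10.71 to 14.06 in pups removed mice. The part of these markers in the Fam107a, Sgk1, Tsc22d3 and Zbtb16 values was not tested.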

How the data were processed

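The 18 LS samples, 6 per group, were each hybridized to 1 array. The authors summarized probes with PLIER in Affymetrix Power Tools 1.12.0 (background by GC bin), and the deposited values are log2 signals rounded to 2 decimals; arrays have no read depth, and 6 arrays per group limit the precision. RNA was extracted in matched triplets, but the labels do not tie replicate numbers to them. Gene names are those of the platform annotation.

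Here a model with 3 groups was fitted to all 35557 probesets with limma 3.58.1 (R 4.3.3), with Benjamini-Hochberg adjustment over all of them and calls at 0.25. The probeset named was the brightest that names 1 gene. Correlations (Python 3.11.15) used 100000 two-sided permutations, within groups where group means were removed. They were adjusted over 36 pairs instead of the 45 planned, since 9 of 10 genes were measured. Named are all members, called members of each list or otherwise the 3 with the smallest p, and the 5 genes most like Fam107a and Fkbp5. The fit and the correlations were tested on simulated data. For maternal versus virgin, the fit called 66% of added log2 differences of 0.3, 87% of those of 0.6 and 98% of those of 1.0. Of its 231 calls there, 62 were false. Differences below 0.3 were not simulated. Members and lists were chosen with earlier results of these data known. Alternatives were the replicate block, quantile normalization, filters on dim or unnamed probesets, 12 arrays, a trended prior, array weights, a threshold of 0.05, exact tests, and each array left out.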

Additional observations from a re-analysis of the deposited data

Results flagged for a closer look

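Among 27 sets of 6 arrays (9 genes in 3 groups), 1 had an array far from the others, where chance alone gives about 1 in 20. Zbtb16 was 8.80 in the third maternal mouse, and the next lowest maternal value was 9.15, a gap of 0.814 of the range of the group.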

How the results depend on the processing

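The call of Fam107a in maternal against pups removed mice was kept in each alternative, with differences of 0.31 to 0.34 when each array was left out. Against virgin mice its difference was 0.20 to 0.24, and the number of genes called was 0 to 2, being 0 without the fifth maternal array (0.20, adjusted p = 0.251) and 2 without the third, when Zbtb16 was added. At a threshold of 0.05 the number called was 0 against virgin mice. With only probesets that name 1 gene it was 2 against pups removed mice, Sgk1 (0.43) being added. That run called 309 of 21789 probesets, against 11 of 35557 in the main run. The Fam107a difference between pups removed and virgin mice, -0.11 (-0.13 to -0.09 when an array was left out), passed the exact permutation test (two-sided, exact p = 0.0173, unadjusted) but not the adjusted fit. With values not centred on group means, 1 of 8 genes (Sgk1) passed with Fam107a by Pearson r and 2 (Sgk1 and Zbtb16) by Spearman rho, against 0 with them centred, 0 under Spearman rho of centred values, quantile normalization or the block, and 0 to 0 when an array was left out. Within single groups, an analysis added after the data were seen, 1 gene passed in virgin (Nr3c2), 0 in maternal and 0 in pups removed mice. In the other comparisons the count of calls when an array was left out was 1 to 1 (maternal against pups removed) and 0 to 0 (pups removed against virgin). As a replicate block, the number gave 1, 1 and 0 calls, with adjusted p of 0.176 and 0.0285 for Fam107a in the maternal comparisons, and changed no call. Same-numbered arrays deviated with correlations of -0.25 to 0.10, and 1 of 18 arrays correlated best with its own number. These values cannot show whether same-numbered samples were extracted together, and the main fit did not pair them. The causes of the changes were not tested, other than fewer probesets or arrays where these were left out. Depth does not apply to arrays.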
